A study of Rattus norvegicus with 6 samples.

Results

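The baseline transcriptome of untreated cells labelled as nucleus pulposus cells was described from 3 of the 6 libraries of a series on the response of these cells to lactate. The members were chosen by their label alone, as the libraries whose treatment is given as none, and no value of the lactate-treated libraries was used. All 3 libraries were labelled as wild type (wt) nucleus pulposus cells of male Sprague Dawley rats, grown in DMEM with fetal bovine serum and antibiotics, and are called control 1, 2 and 3. The labels give no age, passage number or oxygen level, and none says whether the libraries came from separate animals or cultures, so the spread between them may be technical. Levels are the deposited FPKM, that is, reads per transcript length and per library size, and can therefore be compared between genes. A gene was counted as detected when its FPKM was at least 1 in each of the 3 libraries.

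The nucleus pulposus is the gelatinous core of the intervertebral disc, which resists compression because aggrecan, a large sulfated proteoglycan, holds water within a network of collagen. Its cells derive from the embryonic notochord, live far from blood vessels at low oxygen, and are known for relying on glycolysis and for exporting the lactate it yields. Textbook markers include the notochord factor brachyury (Tbxt), simple keratins, Cd24, aggrecan (Acan), type II collagen (Col2a1), Pax1 and Foxf1. In monolayer culture with serum, disc cells are known to take on a fibroblast-like shape.

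The libraries held 33584741 to 38989574 counts over 17273 listed genes, of which 14597 had counts in all 3 libraries and 564 were listed at 0 in all 3. A detection level of 1 FPKM corresponded to 80.3 to 93.2 counts for a gene of median length, and a count of 0 allows up to 3 counts, or 0.0769 to 0.0893 CPM (counts scaled to a common library total), for counting error only. Across genes, log2(FPKM + 1) correlated with a Pearson r of 0.989, 0.989 and 0.990 in the 3 library pairs, and genes are not independent replicates. Control 1 stood slightly apart: its median absolute log2 difference was 0.19 from control 2 and 0.18 from control 3, against 0.12 between controls 2 and 3. As a check for a library deposited more than once, each pair differed by more than counting noise (chi-square per degree of freedom 21.6 to 38.4). This does not show that the libraries came from separate cultures. Of the 17273 genes, 11253 (65.1%) were detected, and this share is the background against which the counts of each gene list below are read. The median level over all listed genes was 4.57 FPKM.

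A small number of genes held much of the signal. The 46 genes with a mean of 1000 FPKM or more carried 23.6% of the summed FPKM, and the 643 genes between 100 and 1000 FPKM carried another 36.3%. The 20 most abundant genes took 15.5, 17.2 and 16.3% in control 1, 2 and 3, a mean of 16.3% ± 0.868 (SD, n = 3). These 20 comprised 6 mitochondrially encoded genes, 4 cytoskeletal genes, 4 matrix glycoprotein genes, 1 collagen, 1 translation factor and 4 entries that carry no gene symbol.

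The highest level belonged to Mt-co1, a subunit of cytochrome c oxidase encoded in the mitochondrial genome, at 8047, 10922 and 10410 FPKM in control 1, 2 and 3. Col1a1, the alpha 1 chain of type I collagen and the main fibrillar collagen chain of fibrous tissue, followed at 7888, 7073 and 6507 FPKM. In control 2 and 3 Mt-co1 exceeded Col1a1 by more than the spread of either gene, whereas in control 1 the pair lay close together. Next came Vim, the intermediate filament protein of mesenchymal cells, at 5748, 5485 and 5780 FPKM, and Actb, cytoplasmic beta-actin, at 5232, 5036 and 5334 FPKM. Their CVs, 2.85% for Vim and 2.91% for Actb, were the lowest among the 5 leading genes. Reads of Actb and Actg1 (2655 ± 217 FPKM) could be split or merged by the counting, since the genes are close copies.

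Among the next genes were Eef1a1, which delivers aminoacyl-tRNAs to the ribosome (3812 ± 298 FPKM), and 4 secreted proteins. Thbs1, the matricellular and TGF-beta activating protein thrombospondin 1, was at 3240, 4207 and 3896 FPKM. Sparc, which binds collagen and calcium, was at 3418, 4043 and 3591 FPKM, so Thbs1 exceeded Sparc in 2 of 3 libraries and the order of the pair does not hold beyond their spread. Ccn2, the connective tissue growth factor, was at 2861, 2567 and 2429 FPKM, and fibronectin (Fn1) was at 2267, 2617 and 2486 FPKM. Ccn2 was the higher of this pair in 1 of 3 libraries only.

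Further genes of the leading 40 were Tmsb4x, which binds monomeric actin (1949 ± 252 FPKM), Ccdc80, a secreted matrix protein (1847 ± 247 FPKM), and the lectin Lgals1 (1766 ± 156 FPKM). Serpinh1, the collagen chaperone HSP47, reached 1657 ± 176 FPKM. Col5a2, a chain of the type V collagen that sits within type I fibrils, was the steadiest of these at 1573, 1650 and 1631 FPKM (CV 2.48%). Osteopontin (Spp1), an acidic glycoprotein of bone and of stressed mesenchymal cells, was at 1345, 1306 and 1721 FPKM. It was the highest in control 3, by more than the difference between the other libraries. The entries without a symbol were LOC100360087 (4512 ± 510 FPKM), LOC108351137 (2157 ± 63.5 FPKM), NEWGENE_621351 (2155 ± 258 FPKM) and Rattus_newGene_6418 (2044 ± 218 FPKM). The rat gene table lists Ftl1, ferritin light chain, as a synonym of LOC100360087. The table pairs no symbol with the other 3. The rest of the leading 40 held the ribosomal protein genes Rplp0 (1580 ± 224 FPKM) and Rpsa (1181 ± 52.4 FPKM) and the prolyl isomerase Ppia (1276 ± 64.8 FPKM). It also held Tpt1 (1442 ± 70.6 FPKM) and further mitochondrial, cytoskeletal, glycolytic and matrix genes.

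Cytoskeletal genes, a list picked for abundance, were detected for 29 of 30, with a median of 701 FPKM and a share of 6.82% ± 0.151 (SD, n = 3) of the summed FPKM. Beside the actins, Vim and Tmsb4x, the calcium-binding protein S100a11 was at 1170, 1525 and 1485 FPKM and Pfn1, which loads actin monomers with nucleotide, at 1203 ± 32.4 FPKM, though Pfn1 is outside the list. The tropomyosin Tpm4 was at 868, 1059 and 1141 FPKM and the myosin light chain Myl6 at 755, 815 and 903 FPKM, both lowest in control 1. The 1 member not detected in each library was Myh9, which is listed at 0 in control 3.

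**Figure D1:**
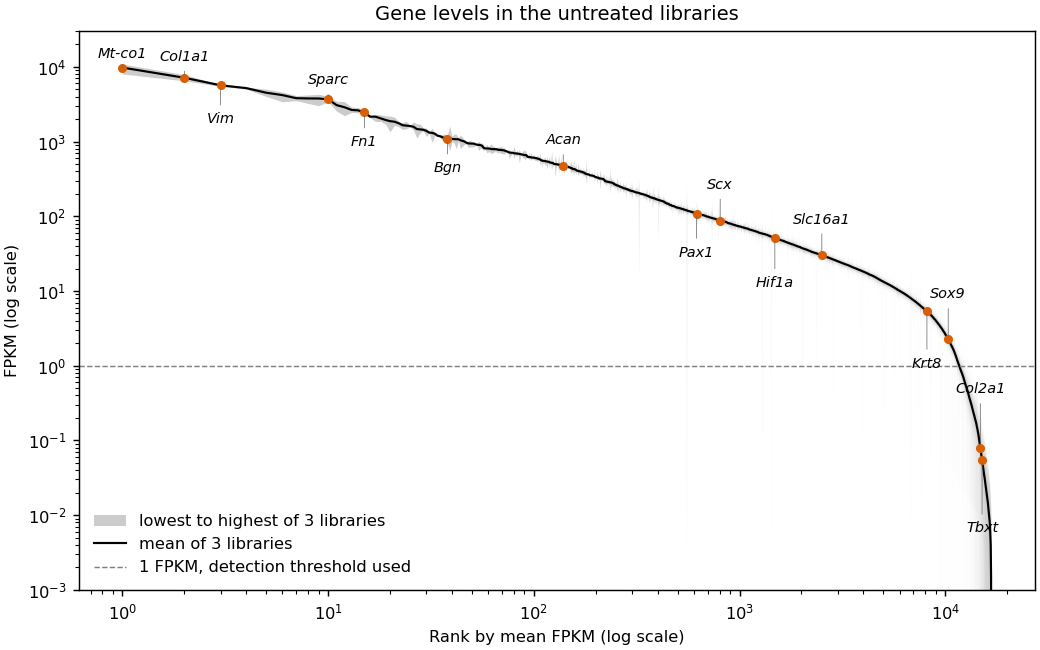
Mean FPKM of every listed gene (vertical axis, log scale) against its rank (horizontal axis, log scale), with the grey band from the lowest to the highest of the 3 untreated libraries and a dashed line at 1 FPKM. Col1a1 (7156 FPKM) and Vim (5671 FPKM) sit near the top, Pax1 (109 FPKM) and Scx (87.7 FPKM) within the first 1000 ranks, and Col2a1 (0.0802 FPKM) and Tbxt (0.0553 FPKM) below the line.

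Promoter stretches of 5 genes described here are shown to put sequence beside their levels. They were chosen after their levels were seen, as matricellular (Ccn2, Ccn1), cytoskeletal (Actg1), cartilage (Acan) and disc (Pax1) genes. Each is the 100 bases before the annotated start, 5′ to 3′ on the gene's strand, from RefSeq on the rat assembly GRCr8. Capitals mark a TATAAA box between bases -45 and -16 on the gene's strand, the CArG box that serum response factor is known to bind, and GGGCGG, a GC box, on either strand (CCGCCC when read on the other strand). Matches that touch or overlap are marked as 1 run.
Ccn2, chr1:22624615-22624714, minus strand: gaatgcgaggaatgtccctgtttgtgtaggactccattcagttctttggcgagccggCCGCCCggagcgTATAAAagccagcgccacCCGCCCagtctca
Ccn1, chr2:237225690-237225789, minus strand: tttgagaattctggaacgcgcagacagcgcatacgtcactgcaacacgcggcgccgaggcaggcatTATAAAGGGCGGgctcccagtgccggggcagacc
Actg1, chr10:106120952-106121051, minus strand: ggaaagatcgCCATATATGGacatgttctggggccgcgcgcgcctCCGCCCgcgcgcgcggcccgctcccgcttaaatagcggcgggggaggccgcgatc
Acan, chr1:142390851-142390950, plus strand: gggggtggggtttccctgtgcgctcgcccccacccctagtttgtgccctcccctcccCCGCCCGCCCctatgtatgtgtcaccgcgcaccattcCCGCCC
Pax1, chr3:155245429-155245528, plus strand: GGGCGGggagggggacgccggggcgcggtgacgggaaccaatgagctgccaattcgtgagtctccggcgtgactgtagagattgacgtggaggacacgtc
The TATAAA box of Ccn2 begins at base -31 and that of Ccn1 at base -34. Over all 33469 promoters of the table, 1.62% hold TATAAA in that window, 0.553% hold a CArG box and 21.6% hold GGGCGG within the 100 bases. A match describes the letters and is no evidence of binding.

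The labelled cell type was set against its markers first. Of 14 nucleus pulposus and notochord markers in the table, 7 were detected (beside 65.1% of all genes), with a median of 1.71 FPKM. Basp1, a membrane-associated protein reported as a nucleus pulposus marker, was at 171, 206 and 209 FPKM. Pax1, a paired box factor of the sclerotome and disc, was at 87.5, 120 and 120 FPKM, and its relative Pax9 was at 5.74, 8.60 and 9.68 FPKM. Both were the lowest in control 1. Foxf1 was at 22.0 ± 1.36 FPKM, the surface glycoprotein Cd24 at 20.7 ± 2.50 FPKM, the BMP antagonist chordin (Chrd) at 6.61 ± 0.576 FPKM and the simple keratin Krt8 at 5.35 ± 0.454 FPKM.

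The notochord markers Tbxt and Krt19 lay close to the counting floor. Tbxt had 4 counts in each library (0.0553 FPKM), and Krt19, a simple keratin of notochordal cells, had 3, 4 and 2 counts (0.0507 FPKM). Ca12, a membrane carbonic anhydrase of the nucleus pulposus, was at 0.111 FPKM with 33 counts in all, and the notochord factors Foxa2 and Foxa1 were at 0.959 and 0.236 FPKM with 236 and 42 counts in all. Tbxt and Krt19 therefore go against the label. Foxa1, Foxa2, Ca12, Nog (0.799, 1.22 and 1.04 FPKM) and Tek (0.0409 FPKM) were not detected in every library either. The textbook marker Col2a1, on the chondrocyte list, had 39 counts in all. By contrast, Basp1, Pax1, Foxf1, Cd24, Chrd, Krt8 and Cdh2 were detected in each library. The samples are therefore called by their treatment, the untreated libraries. Krt18, Noto and Shh were not analysed here. In bulk RNA, fewer cells of a type and less RNA per cell cannot be told apart, and this holds for every marker list.

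Cartilage genes divided sharply. Of 18 chondrocyte markers, 6 were detected, and the median of the list was 0.159 FPKM. Acan was at 486, 428 and 499 FPKM (rank 139), and Col11a1, a minor fibrillar chain of cartilage that other mesenchymal cells also make, was at 368, 416 and 344 FPKM. Hapln1, the link protein that fixes aggrecan to hyaluronan, was at 40, 31.8 and 37.6 FPKM. By contrast Col2a1, the main cartilage collagen, had 23, 2 and 14 counts (0.145, 0.0108 and 0.0847 FPKM). Its partners Col9a1, Col9a2, Col9a3 and Col11a2 had 18, 28, 17 and 83 counts over the 3 libraries together. Sox9, the factor that drives Acan and Col2a1 in chondrocytes, was at 2.2, 2.36 and 2.19 FPKM, and its cofactor Sox6 at 2.25, 4.35 and 3.57 FPKM. Comp, a cartilage and tendon glycoprotein, was at 7.32 ± 0.752 FPKM.

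Annulus fibrosus and tendon markers were detected for 7 of 8 genes, with a median of 19.6 FPKM. Ltbp2, a fibrillin-binding protein of the outer disc, was at 363, 312 and 310 FPKM. The tendon transcription factors Scx and Mkx were at 98.7, 75.6 and 88.8 FPKM and at 30.3, 43.2 and 36.1 FPKM. Fbln1 was at 23.6 ± 2.54 FPKM, Thbs4 at 15.6 ± 2.95 FPKM and Fmod at 10.3 ± 1.72 FPKM, while keratocan (Kera) had 3 counts, all in control 3. Every detected gene of this list lay above Sox9 in mean level. The same held for every detected nucleus pulposus and notochord marker and for the other detected chondrocyte markers. Sox9, at a mean of 2.25 FPKM, was itself near the detection level of 1 FPKM. The members not detected all lay below Sox9, so this order follows largely from the filter.

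Fibroblast markers were detected for 13 of 15 genes, with a median of 40.1 FPKM and a share of 3.90% ± 0.0729 (SD, n = 3) of the summed FPKM. Beside Col1a1, Vim and Fn1, they included S100a4, a calcium-binding protein of motile fibroblasts (1146, 1029 and 1241 FPKM), and the surface glycoprotein Thy1 (572, 579 and 609 FPKM). Thy1 varied little between libraries (CV 3.29%). The CV of S100a4, 9.34%, was close to the median of 9.62% over genes with a mean count of at least 100. The matricellular protein Postn followed at 129 ± 17.1 FPKM, the microfibril proteins Mfap5 and Fbn1 at 40.1 ± 4.64 and 33.5 ± 2.95 FPKM and Pdgfra at 19.7 ± 1.14 FPKM. Lower members were Lum at 5.50, 11 and 7.90 FPKM, Dcn at 3.50, 5.84 and 3.52 FPKM and Dpt at 0.198 FPKM.

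All 11 smooth muscle and pericyte markers were detected, with a median of 23.2 FPKM. The actin-binding protein Tagln was at 1021, 991 and 827 FPKM and smooth muscle actin (Acta2) at 759, 790 and 592 FPKM, both lowest in control 3. Smtn (125 ± 26.2 FPKM), the proteoglycan Cspg4 (94.0 ± 6.61 FPKM), Pdgfrb (34.8 ± 1.22 FPKM) and Cnn1 (23.2 ± 2.55 FPKM) followed, and the heavy chain of mature smooth muscle, Myh11, was at 13.1 ± 2.01 FPKM. Des, Kcnj8, Mcam and Myocd were also detected, the lowest of them Myocd at 2.32 FPKM. Tagln, Acta2 and Cnn1 are also made by contractile fibroblasts, so these genes do not separate the cell types.

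Few markers of other lineages were detected. The endothelial, macrophage, skeletal muscle, neural and adipocyte lists each had 1 detected gene, of 5, 9, 5, 5 and 6 in the table, and the epithelial list had 0 of 4. The single detected genes were Egfl7 (14.5 ± 2.84 FPKM), Cd14 (7.23 ± 0.471 FPKM), Acta1 (10.3 ± 1.31 FPKM), S100b (11.9 ± 1.09 FPKM) and Pparg (1.41 ± 0.169 FPKM). Several defining markers were at or near 0: the endothelial receptor Kdr was listed at 0 in all 3 libraries, Vwf had 29 counts in all, and the epithelial Epcam had 4. The macrophage gene Cd68 was at 0.548 FPKM, and Krt14 was listed at 0. The T cell kinase Lck, the single lymphoid marker in the table, was at 0.106 FPKM with 25 counts in all. The bone and osteoclast lists differed from these. Of the bone and hypertrophic cartilage list, 6 of 10 were detected. In mean level, Spp1 was followed by Runx2 (9.16 ± 1.23 FPKM), Mef2c (8.94 FPKM), Ibsp (7.44 FPKM), Mmp13 (2.38 FPKM) and Alpl (1.64 FPKM). Bglap and Phex were listed at 0 and Col10a1 had 28 counts. Of the osteoclast list, the cysteine protease Ctsk (23.4 ± 4.77 FPKM) and Acp5 (4.77 ± 0.698 FPKM) were detected, both of which fibroblasts can also express.

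**Figure D2:**
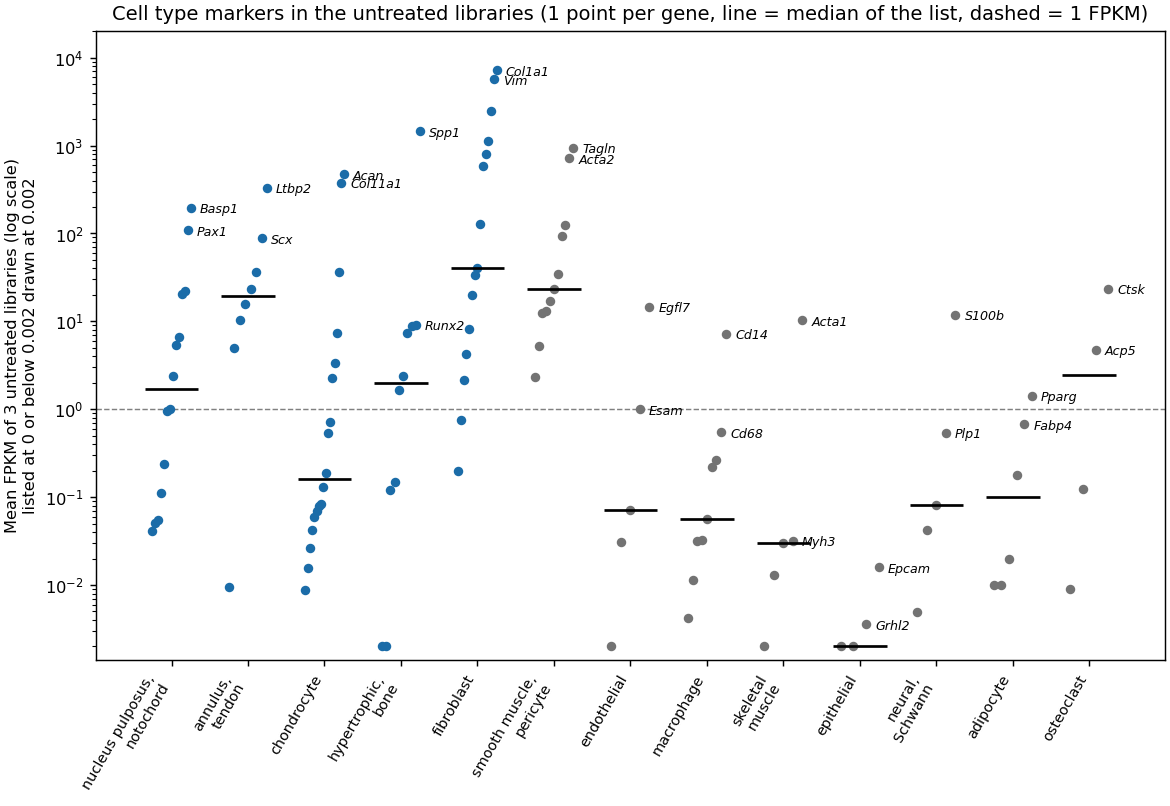
Mean FPKM over the 3 untreated libraries (vertical axis, log scale, values listed at 0 or below 0.002 drawn at 0.002) of each marker gene, with 1 column per cell type list, a bar at the median of the list and a dashed line at 1 FPKM. The fibroblast (40.1 FPKM), smooth muscle and pericyte (23.2 FPKM) and annulus and tendon (19.6 FPKM) medians lie above the nucleus pulposus (1.71 FPKM) and chondrocyte (0.159 FPKM) medians.

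The collagen chains analysed here made up 2.84% ± 0.0859 (SD, n = 3) of the summed FPKM, and 19 of these 35 chains were detected. Col1a1 exceeded Col3a1, the type III chain of loose connective tissue (726, 850 and 847 FPKM), by a ratio of 8.96 ± 1.68 within a library. That ratio was 10.9 in control 1 and 8.33 and 7.68 in the others, since control 1 held the most Col1a1 and the least Col3a1. Against Col2a1 the log2 ratio of Col1a1 was 17.10 ± 1.95, a value limited by the 39 counts of Col2a1 in all. The type VI chains, which form the mesh around each disc cell, were at 1086 ± 83.3 FPKM (Col6a1) and 942 ± 93.4 FPKM (Col6a2). The value ranges of the pair overlapped (853 to 1039 FPKM for Col6a2), and Col6a1 was the higher in each library. Col5a1 was at 455, 459 and 449 FPKM, the narrowest spread of the abundant chains (CV 1.06%). Col1a2, which pairs with Col1a1, and the type VI chain Col6a3 were not analysed here, so the share of collagen genes leaves them out.

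The enzymes and chaperones that build collagen were almost all present: 22 of 23 were detected, with a median of 97.4 FPKM. Beside Serpinh1, lysyl oxidase (Lox), which cross-links collagen and elastin, was at 916, 1056 and 1038 FPKM. P4hb, the shared subunit of prolyl 4-hydroxylase, was at 706, 654 and 667 FPKM, and its catalytic partner P4ha1 at 236, 330 and 286 FPKM. Plod2, which hydroxylates telopeptide lysines, was at 482, 524 and 484 FPKM, and Pcolce, which speeds removal of the C-terminal propeptide, at 452, 481 and 455 FPKM. P4ha1 spread more widely (CV 16.6%) than P4hb (4.02%), Plod2 (4.79%) and Pcolce (3.42%).

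Large proteoglycans and the hyaluronan system were detected for 21 of 29 genes, with a median of 7.53 FPKM. Acan exceeded versican (Vcan), the large proteoglycan of fibrous and developing tissue, by a log2 ratio of 2.94 ± 0.40 (SD, n = 3). Vcan was at 46.0, 66.4 and 75 FPKM, so the linear ratio was 10.6 in control 1 and 6.44 and 6.65 in control 2 and 3. Its counts were 12843, 18848 and 18520. On counts, which leave out the length used for FPKM, the log2 ratio was 2.80 ± 0.27 (SD, n = 3). The cell surface heparan sulfate proteoglycans Gpc1 and Sdc2 were at 428 ± 28.7 and 190 ± 10.1 FPKM, and Sdc1 at 107 ± 13 FPKM. The hyaluronan receptor Cd44 was at 174, 181 and 187 FPKM. Has2, the main hyaluronan synthase of mesenchymal cells, was much lower at 4.42, 3.86 and 3.49 FPKM.

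The small leucine-rich proteoglycans, which coat collagen fibrils, were detected for 7 of 11 genes, and 1 gene dominated. Biglycan (Bgn) was at 951, 1237 and 1110 FPKM, and exceeded decorin (Dcn), its closest relative, by a ratio of 266 ± 51.8 (SD, n = 3). Prelp was at 108, 134 and 150 FPKM and Ogn at 53.3, 42.9 and 43.4 FPKM. Control 1 was the lowest for Bgn, Prelp, Fmod, Lum, Dcn and Aspn but the highest for Ogn. Across the detected members of the list the median log2 deviation from each gene's mean was -0.26 in control 1, 0.18 in control 2 and 0.02 in control 3.

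Matrix glycoproteins were detected for 39 of 53 genes, with a median of 33.5 FPKM and a share of 3.96% ± 0.240 (SD, n = 3) of the summed FPKM. Behind Thbs1, Sparc, Ccn2, Fn1 and Spp1, Thbs2 was at 755, 1010 and 950 FPKM. Thbs1 exceeded Thbs2 by a ratio of 4.19 ± 0.0975 in each library, so the pair varied together. Mgp, an inhibitor of calcification, was at 718, 738 and 671 FPKM. Ccn1, a matricellular relative of Ccn2, was at 443, 464 and 475 FPKM, and Efemp2, needed for elastic fibres, at 198 ± 1.11 FPKM. The largest spread among the glycoproteins with at least 100 counts in each library belonged to Tnn (37.7, 59.5 and 92.5 FPKM), named after its values were seen.

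**Figure D3:**
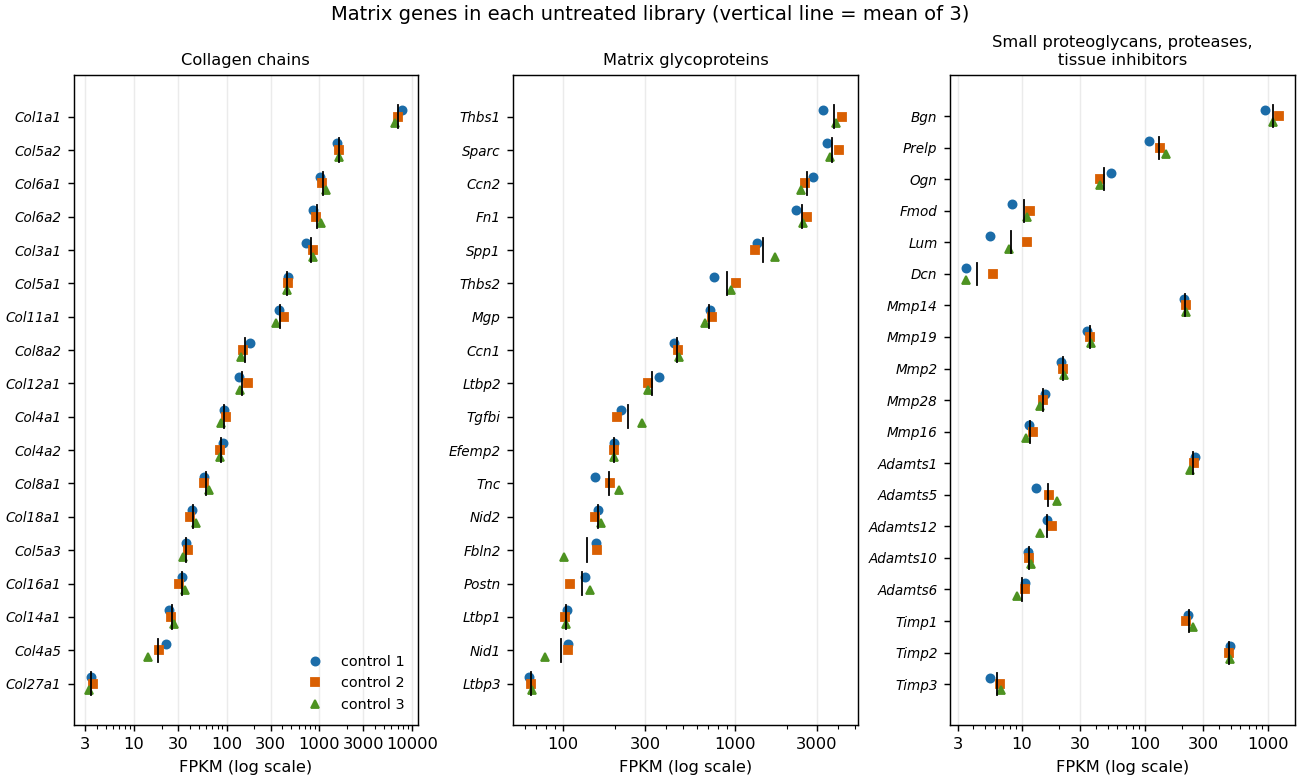
FPKM (horizontal axis, log scale) of abundant collagen chains, matrix glycoproteins, small proteoglycans, proteases and tissue inhibitors in control 1 (circles), control 2 (squares) and control 3 (triangles), with a vertical line at the mean of 3. Col1a1 stands above every other chain, Col5a1 and Efemp2 show nearly overlapping points, and Bgn (1099 FPKM) lies far above Dcn (4.29 FPKM).

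Matrix metalloproteinases were detected for 9 of 14 genes. Mmp14, the membrane-bound collagenase that activates Mmp2, was at 208, 217 and 215 FPKM, and Mmp2, a gelatinase, at 20.6, 21.6 and 22.1 FPKM, a ratio of 9.96 ± 0.181 (SD, n = 3). Mmp19 was at 35.6 ± 1.24 FPKM. The secreted stromelysin Mmp3 was at 7.81, 5.56 and 12.6 FPKM and the collagenase Mmp13 at 2.03, 2.03 and 3.07 FPKM. Both were the highest in control 3, and Mmp3 spread more widely (CV 41.4%) than Mmp14 (2.43%). Mmp12, a macrophage elastase, was listed at 0.

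ADAMTS proteinases were detected for 11 of 16 genes, led by Adamts1, which cleaves versican and aggrecan, at 257, 251 and 232 FPKM. Of the main aggrecanases, Adamts5 was at 13, 16.5 and 19.3 FPKM and Adamts4 at 0.525, 0.525 and 0.334 FPKM. Their ratio was 38.0 ± 17.4, and Adamts5 was the higher in each library. Of the tissue inhibitors, which block both families, Timp2 was at 490, 485 and 493 FPKM (CV 0.807%), Timp1 at 224, 217 and 246 FPKM and Timp3, the inhibitor that binds the matrix, at 5.51, 6.70 and 6.78 FPKM. The plasminogen activators Plat and Plau were at 18.6 ± 1.04 and 10.5 ± 0.971 FPKM. The protease nexin Serpine2 was at 499 ± 79.2 FPKM and the serine protease Htra1 at 266 ± 26.2 FPKM.

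Glycolytic genes were detected for 17 of 19 genes, with a median of 49.5 FPKM and a share of 0.972% ± 0.0525 (SD, n = 3). Pkm, pyruvate kinase, was at 1341, 1293 and 1329 FPKM, and the enolase Eno1 at 1252, 1017 and 1078 FPKM. Aldoa was at 695 ± 42.4 FPKM, Pgk1 at 418 ± 80.5 FPKM, Pgam1 at 382 ± 17.7 FPKM and Gpi at 168 ± 6.99 FPKM. Eno1 and Pgk1 were the highest in control 1, and Pkm had a CV of 1.88%. Slc2a1, the widespread glucose transporter GLUT1, was at 71.7, 64.9 and 71.1 FPKM and exceeded Slc2a3 by a ratio of 4.68 ± 0.517, whereas the insulin-responsive Slc2a4 had 19 counts in all. Gapdh was not analysed here.

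Among genes of lactate and pH handling, 11 of 17 were detected. Ldha, the dehydrogenase subunit that favours lactate formation, was at 867, 690 and 767 FPKM, and Ldhb, the subunit that favours its oxidation, at 6.06, 4.74 and 5.07 FPKM. Their ratio was 143, 145 and 151, a mean of 147 ± 4.27 (SD, n = 3), with a narrower relative spread than either gene (CV 11.5% for Ldha and 13% for Ldhb). The lactate exporter Slc16a3 (MCT4) was at 62.8, 50.0 and 63.7 FPKM and Slc16a1 (MCT1), which carries lactate both ways, at 32.4, 28.2 and 30.0 FPKM. Slc16a3 was the higher in each library, by a ratio of 1.94 ± 0.176. Basigin (Bsg), the chaperone of both transporters, was at 349, 353 and 336 FPKM.

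Ca9, a membrane carbonic anhydrase known as a hypoxia target, was at 252, 245 and 257 FPKM. Its level, with a CV of 2.35%, stood far above that of Ca12 in the same membrane family. The anion exchanger Slc4a2 was at 35.8 ± 1.58 FPKM. The proton-sensing receptor Gpr4 was listed at 0 in all 3 libraries.

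The oxidative branch was also present. Of 24 genes of pyruvate dehydrogenase and the TCA cycle, 23 were detected, with a median of 36.0 FPKM, led by Mdh2 (133, 134 and 134 FPKM), Pdha1 (99.6 ± 3.51 FPKM) and Cs (94.3 ± 6.54 FPKM). Pdk1, a kinase that switches pyruvate dehydrogenase off, was at 17.1 ± 0.361 FPKM and Pdk4 at 0.350 ± 0.114 FPKM. All 24 nuclear genes of oxidative phosphorylation were detected, with a median of 71.3 FPKM, from Atp5f1b (331 ± 73.3 FPKM) and Cox6a1 (317 ± 13.5 FPKM) down to Ndufb5 (34.0 ± 1.65 FPKM).

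Mitochondrially encoded genes varied more between libraries than most groups. All 13 were detected and took 5.54, 7.98 and 7.46% of the summed FPKM, a mean of 6.99% ± 1.29 (SD, n = 3). Control 1 was the lowest in 12 of the 13, with a median log2 deviation of -0.35, against 0.23 in control 2 and 0.11 in control 3. The nuclear genes of oxidative phosphorylation ran the other way, with control 1 the highest for 20 of 24 and a median deviation of 0.16. Ribosomal protein genes (76 of 76 detected, 7.5% ± 0.489 of the summed FPKM) were also the highest in control 1 for 53 of 76, with medians of 0.14, -0.03 and -0.09. Over all 11253 detected genes, control 1 was the lowest for 4097 and the highest for 4653, and the median deviation was 0.01, -0.02 and 0.01. Control 1 also showed a trend with transcript length, from a median deviation of 0.06 in the shortest of 10 equal groups of genes to -0.06 in the longest, and its part in these deviations was not tested.

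Genes of oxygen sensing and of the hypoxia response were detected for 16 of 17, with a median of 14.3 FPKM. Hif1a, the oxygen-regulated factor that nucleus pulposus cells are known to keep active, was at 48.5, 52.6 and 52.8 FPKM. Its relative Epas1 was at 3.66, 5.12 and 4.92 FPKM, and the ratio was 11.4 ± 1.61 (SD, n = 3). Known targets of the pathway included the mitophagy receptor Bnip3 (83.8 ± 8.64 FPKM), Vegfa (29.1, 34.4 and 32.2 FPKM) and Ndrg1 (28.3 ± 2.30 FPKM). Of the prolyl hydroxylases that mark HIF for destruction, Egln1 was at 43.6 ± 1.11 FPKM, whereas Egln3 was at 0.141 ± 0.00215 FPKM with 44 counts in all. Transcript levels do not report HIF protein, which is regulated by its stability.

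Osmotic and mechanical genes were detected for 7 of 10. The sorbitol-forming aldose reductase Akr1b1 was at 107 ± 12.2 FPKM, the stretch channel Piezo1 at 60.7, 58.9 and 57.9 FPKM, the taurine carrier Slc6a6 at 24.2 ± 5.11 FPKM and the volume-regulated channel subunit Lrrc8a at 21.6 ± 0.341 FPKM. Nfat5, the factor of the response to high salt, was at 7.55, 9.48 and 8.16 FPKM and the channel Trpv4 at 4.78, 4.97 and 4.57 FPKM. Piezo2 was at 0.0857 FPKM and the water channel Aqp3 was listed at 0.

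Of the TGF-beta, activin and BMP receptors, 11 of 13 were detected, led by Tgfbr2 (30.4, 33.0 and 33.9 FPKM), the coreceptor Eng (27.1 ± 2.18 FPKM) and Bmpr1a (20.6 ± 1.03 FPKM). Tgfbr1, which signals in complex with Tgfbr2, was at 14.9, 11.8 and 13 FPKM, and Tgfbr2 exceeded it by a ratio of 2.48 ± 0.398. Bmpr1b and Tgfbr1 changed places between libraries, so their order is not settled.

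Of the list of receptor tyrosine kinases, 26 of 44 genes were detected, with a median of 3.47 FPKM. The list also holds Igf2r, which is not a kinase. Axl, the receptor for Gas6, was at 194, 175 and 212 FPKM, the Wnt coreceptor Ryk at 98.8, 98.5 and 101 FPKM and Igf2r, which clears IGF2, at 76.0 ± 1.24 FPKM. Fgfr1 (41.8 ± 2.17 FPKM), Epha2 (40.9 ± 3.14 FPKM) and the collagen receptor Ddr2 (38.8 ± 3.86 FPKM) had overlapping values. Pdgfrb, at 33.4, 35.8 and 35.2 FPKM, exceeded Pdgfra, at 18.4, 20.6 and 20.1 FPKM, in each library by a ratio of 1.77 ± 0.0408. Igf1r was at 21.6, 25.7 and 26.8 FPKM, while its ligand genes Igf1 and Igf2 had 49 and 7 counts in all.

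Cytokine and TNF family receptors were detected for 26 of 37. Tnfrsf12a, the receptor for TWEAK, was at 260, 224 and 279 FPKM, far above Tnfrsf1a, the main TNF receptor (70.7, 76.3 and 73.3 FPKM), and Il6st, the shared signalling subunit gp130 (70.7, 72.1 and 71.7 FPKM). The IL-33 receptor gene Il1rl1 was at 27.8, 27.2 and 38.3 FPKM, the highest in control 3, and Il1r1 was at 5.68 ± 0.568 FPKM. Il6r, which gp130 needs to bind IL-6, stayed below detection at 0.858 ± 0.0853 FPKM.

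G protein-coupled receptors and their accessory proteins were detected for 35 of 68, beside 65.1% of all genes. The leading member was Lgr5, an R-spondin receptor known from stem cells, at 87.4, 119 and 137 FPKM (CV 22.0%), lowest in control 1. Its relative Lgr4 was at 47.4, 51.6 and 43.2 FPKM, and Lgr5 was the higher in each library. The thrombin receptor F2r (54.1 ± 7.04 FPKM), Adgra2 (51.9 ± 2.36 FPKM) and Gprc5a (48.5 ± 5.74 FPKM) overlapped with Lgr4. The chemokine receptor Cxcr4 had 3 counts, all in control 3.

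Of the integrins, which bind matrix as alpha and beta pairs, 9 of 22 subunits were detected. Itgb1, the beta subunit shared by most matrix-binding pairs, was at 827, 792 and 754 FPKM. Its alpha partners were led by Itga3 (174, 155 and 199 FPKM) and Itga6 (179, 147 and 176 FPKM), which join laminin receptors, and by Itga11 (108, 137 and 108 FPKM), a collagen receptor of fibroblasts. Itga3 and Itga6 overlapped. The fibronectin and vitronectin receptor subunits Itga5 (58.3 ± 4.00 FPKM) and Itgav (56.6 ± 4.39 FPKM) also overlapped, while Itga10, a collagen receptor of chondrocytes, was at 0.295 ± 0.125 FPKM.

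Of the list of Wnt, Notch and Hedgehog receptors, 14 of 18 were detected. Its highest member, Lrp1 (104, 114 and 108 FPKM), is mainly a scavenger receptor. Next were Fzd1 (68.7 ± 1.71 FPKM), Fzd7 (38.0 ± 1.41 FPKM) and the Wnt coreceptor Lrp6 (37.7 ± 3.81 FPKM). Notch2 (23.8 ± 0.506 FPKM) exceeded Notch1 (0.625 ± 0.0585 FPKM) in each library. Nuclear receptors were detected for 26 of 33, at lower levels: Rarg, a retinoic acid receptor of skeletal tissue, was at 37.0, 46.0 and 44.4 FPKM, Nr2f6 at 30.8 ± 6.93 FPKM and Thra, a thyroid hormone receptor, at 29.0 ± 0.849 FPKM. The glucocorticoid receptor Nr3c1 was at 13.8 ± 1.29 FPKM and the vitamin D receptor Vdr at 0.260 ± 0.131 FPKM.

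**Figure D4:**
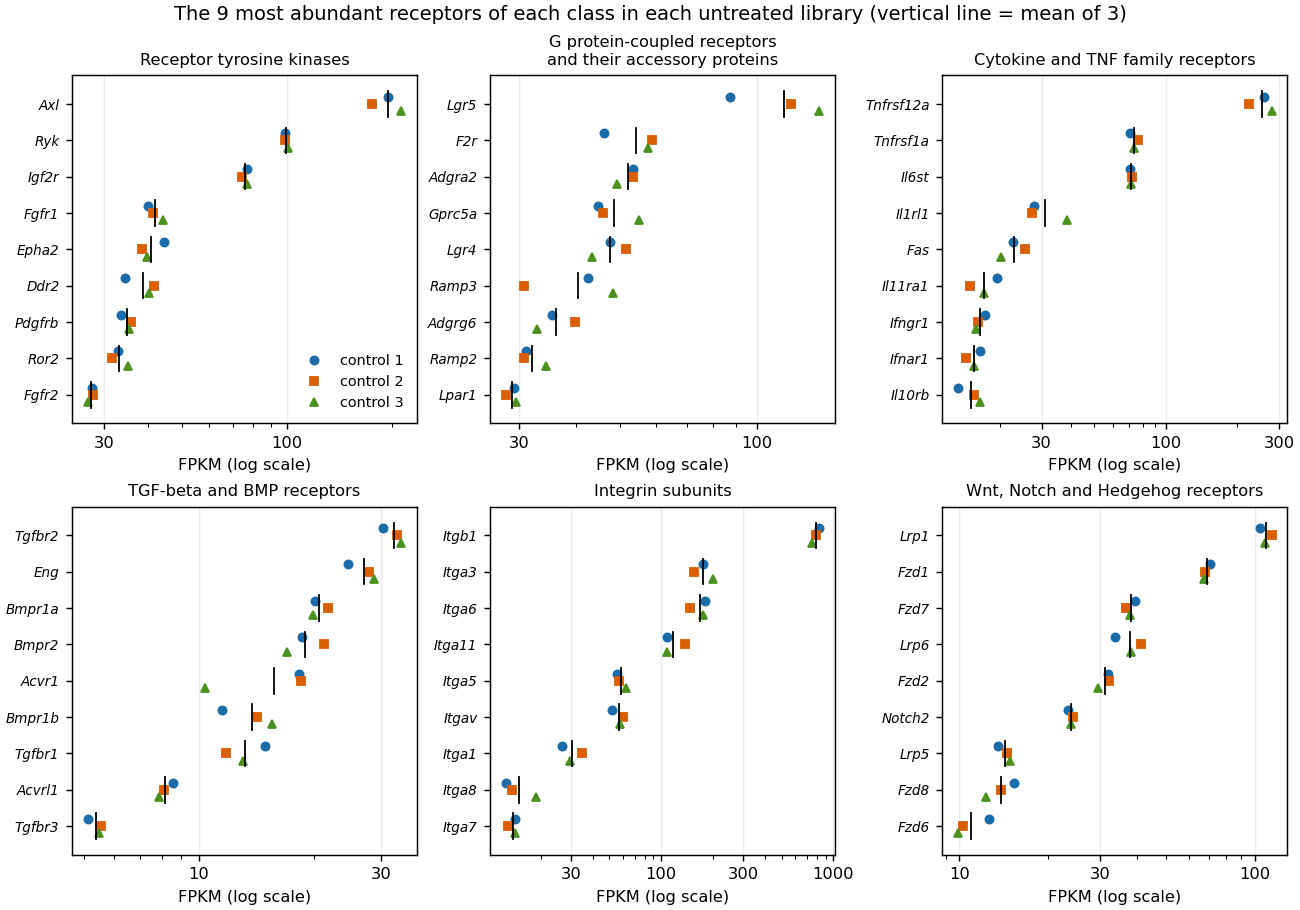
FPKM (horizontal axes, log scale, with a range of its own in each panel) of the 9 most abundant receptors of 6 classes in control 1 (circles), control 2 (squares) and control 3 (triangles), with a vertical line at the mean of 3. Itgb1 (791 FPKM) and Tnfrsf12a (254 FPKM) stand clear of the next member of their class in all 3 libraries, while many lower neighbours overlap.

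Growth factors and their binding proteins were detected for 46 of 70. Fstl1, a secreted glycoprotein of the follistatin family, was at 584, 569 and 550 FPKM, and the BMP antagonist Grem1 at 356, 342 and 373 FPKM. Grem1 exceeded Bmp4, one of the ligands that it binds, by a ratio of 5.23 ± 0.555 (SD, n = 3). Of the TGF-beta ligands, Tgfb3 was the highest in each library at 255, 250 and 259 FPKM, ahead of Tgfb1 at 112, 125 and 129 FPKM and Tgfb2 at 36.7, 55.4 and 36.6 FPKM. Igfbp7 was at 335 ± 12.4 FPKM, the guidance factor Sema3c at 196 ± 8.53 FPKM and the BMP antagonist Nbl1 at 184 ± 27.0 FPKM. Gdf5, a BMP family ligand known from joints and discs, and Pdgfb were listed at 0.

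Cytokine and chemokine genes were mostly undetected (10 of 25 detected, median 0.373 FPKM). Mif, a constitutive cytokine, was at 408, 424 and 457 FPKM and Csf1, the growth factor of macrophages, at 90.6, 89.2 and 95.6 FPKM. The neutrophil chemokine Cxcl1 was at 13.8, 11 and 15.7 FPKM and Ccl2, which recruits monocytes, at 3.86, 4.03 and 3.52 FPKM. Il6 had 6, 4 and 0 counts, Il1a had 3 counts in control 2 alone, and Tnf was listed at 0 in all 3 libraries.

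Genes of mitosis and DNA replication were all detected (27 of 27, median 33.6 FPKM). The nucleotide reductase subunit Rrm2 was at 117, 83.3 and 122 FPKM, the mitotic kinase Cdk1 at 99.8, 69.3 and 97.0 FPKM and the replication clamp Pcna at 93.5, 61.9 and 81.3 FPKM. Each of these was the lowest in control 2, as were 23 of the 27. Control 3 was the highest for 23 of the 27. Over all 11253 detected genes, control 2 was the lowest for 4126 and control 3 the highest for 3657. For mitosis and replication the median log2 deviations were 0.04, -0.21 and 0.20. Of the list of D cyclins and inhibitors of the cell cycle, 14 of 15 were detected. The list also holds Glb1 and Lmnb1, which are neither. Ccnd1 was at 183, 141 and 153 FPKM, Ccnd3 at 77.8 ± 5.00 FPKM and the p53 target Cdkn1a at 81.2, 76.4 and 73.4 FPKM.

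Transcription factors of the skeletal and mesenchymal lineages were detected for 45 of 59. Prrx2 and Prrx1, homeobox factors of limb and connective tissue mesenchyme, were at 199, 180 and 204 FPKM and at 81.2, 119 and 125 FPKM. Prrx2 was the higher in each library, and Prrx1 had values close to those of Pax1. Creb3l1, which raises collagen secretion in fibroblasts and osteoblasts, was at 64.2, 91.4 and 78.4 FPKM, and Foxp1 was at 49.8 ± 7.04 FPKM. Control 1 was the lowest for 31 of the 45 detected factors, with a median deviation of -0.16, beside 4097 of 11253 detected genes.

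Hox genes, which mark position along the body axis, were detected for 22 of 31. Those of paralog groups 9 to 13, which are known from the trunk to the tail, were detected for 12 of 13, with a median of 6.30 FPKM. The medians were 1.54 FPKM for groups 5 to 8 (6 of 9 detected) and 0.859 FPKM for groups 1 to 4 (4 of 9 detected). The highest member was Hoxc12 at 40, 34.1 and 37.6 FPKM, followed by Hoxc10 (13.3, 16.8 and 15.2 FPKM), Hoxb9 (9.45, 14.3 and 15.5 FPKM) and Hoxb7 (10.1, 10.3 and 11.4 FPKM). Hoxc12 stood clear of the next gene in each library, whereas Hoxc10, Hoxb9 and Hoxb7 were not in the same order in every library. The labels do not give the spinal level of the discs.

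The spread between libraries was small for most genes. Among the 11116 genes with a mean count of at least 100, the median CV of FPKM was 9.62%, and the common biological coefficient of variation from the counts was 0.139. Without control 1 the median CV was 5.71%, against 8.80% without control 2 and 9.11% without control 3. These values are over 2 libraries, so they are compared with each other and not with 9.62%. Controls 2 and 3 were thus the closest pair. The CV fell with level, from a median of 12.4% at 1 to 10 FPKM to 8.36% at 10 to 100 FPKM and 7.49% at 100 to 1000 FPKM, and was 11.1% for the 46 genes above 1000 FPKM, which include 10 of the mitochondrially encoded genes.

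A separate class of genes was listed at 0 in a library despite many counts in another. It held 90 genes with at least 100 counts elsewhere, 29 of them with a symbol, of which 47 were listed at 0 in 1 library and 43 in 2. The extreme was Myh9, the heavy chain of non-muscle myosin, with 20121, 66521 and 0 counts. The mitochondrial protease Yme1l1 had 0, 0 and 1858 counts and the chromatin subunit Kansl2 had 0, 0 and 1245 counts, while Tspan4 had counts in control 2 alone (1365). Med22, Chid1, Wbp11l1, Nfs1, Zmiz2, Tsen34l1 and Mboat7 were likewise listed at 0 in 2 libraries (CV 173%). Vwa5a (3021, 1083 and 0 counts) and Phf6 (145, 328 and 0 counts) were listed at 0 in control 3. Counting error does not give 0 beside counts of this size. An exact 0 can be a failed estimate, which was not tested, and no level of a single gene is drawn from this class. Myh9 does count in the median and share of the cytoskeletal list, and the median CV includes such genes.

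The other 2 of the 15 most variable named genes had counts in every library. Zswim8 had 2149, 821 and 251 counts (CV 96.3%), the widest spread among genes with a symbol and at least 100 counts in each library, and the kinase Mast4 had 55, 320 and 27 counts (CV 115%). The 3 further genes given here, chosen after their values were seen, were Tlk1 (2.90, 11 and 2.60 FPKM, CV 86.9%), the ribosomal precursor gene Fau (75.2, 153 and 39.4 FPKM, CV 65.2%) and S100a6, a calcium-binding protein (1616, 764 and 899 FPKM, CV 41.9%). Tlk1 and Fau were highest in control 2 and S100a6 in control 1. Fau has processed copies in many genomes, so its count is uncertain.

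**Figure D5:**
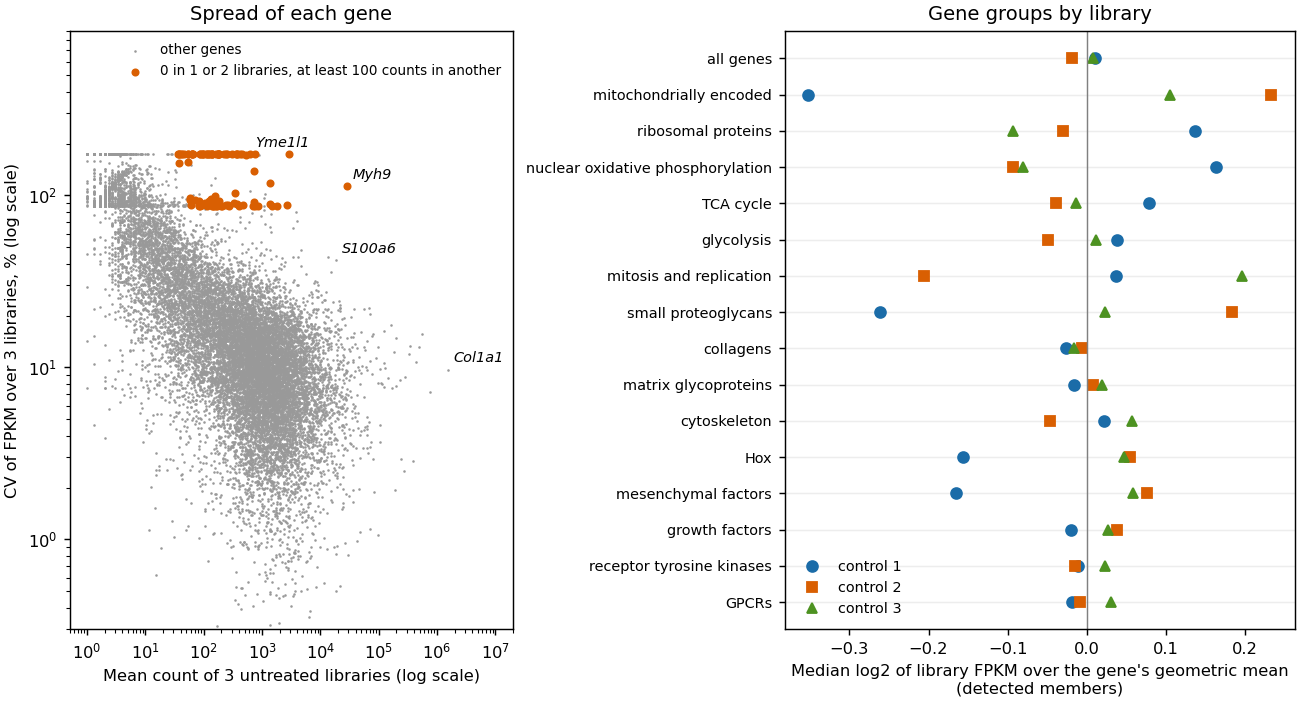
Left, the CV of FPKM over 3 untreated libraries (vertical axis, %, log scale) against the mean count (horizontal axis, log scale), with the 90 genes listed at 0 in a library and holding at least 100 counts in another in orange. Right, the median log2 of library FPKM over each gene's geometric mean for the detected members of gene groups: mitochondrially encoded genes lie at -0.35 in control 1 (circle), and mitosis and replication genes at -0.21 in control 2 (square) and 0.20 in control 3 (triangle).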

How the data were processed

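RNA sequencing libraries of untreated rat cells, labelled as nucleus pulposus cells, were described from 1 deposited table of 17273 genes. Its values, as the authors deposited them, are raw counts and FPKM of each library, per the file headers. Libraries were made with an mRNA library kit from total RNA, per the labels' protocols. Which aligner, counter, annotation and strand setting were used is not given in the sources used here. Although the gene names are those of the rat, GRCm38 and mm10, mouse builds, are named per the submitters' processing notes. No coordinates were therefore taken from the table. Values of close gene copies and of overlapping or antisense genes are uncertain, since their reads could be split or merged.

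Of the 17273 names, 14063 (81.4%) matched a symbol or synonym of the RefSeq table for GRCr8, used for names and promoter sequences. Only 63 of the 100 most abundant genes had a promoter entry, so no promoter property over a gene set is given. Means and SDs are of FPKM over 3 libraries, and ratios were taken within a library. Transcript length was derived from counts and FPKM. It differed by more than 10% between libraries for 366 of the 10702 genes with at least 100 counts in each. For such genes the spread of FPKM also holds a change of length. Shares are of the summed FPKM. The common biological coefficient of variation came from the counts with edgeR 4.0.16 in R 4.3.3 (TMM factors, filterByExpr filter, intercept only). With 1 group there was no test and no p-value.

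The libraries, 43 gene lists (1003 genes, 875 of them in the table) and the rules were chosen with earlier results of these data known. The naming rule took the 40 most abundant genes, up to 6 leading members of each list and defining members at 0. It added the 15 largest CVs among symbols with a mean count of at least 100, and 36 genes whatever their level. Low members and other genes outside it were named once their values were known. Some genes are not reported here. Alternatives were other detection levels, scalings (TMM, DESeq2 1.42.0 size factors), count minimums, pseudocounts and each library left out.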

Additional observations from a re-analysis of the deposited data

How the results depend on the processing

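No paired analysis was possible because only 1 group is described and no result comes from a test. The number of detected genes was 5638 at 10 FPKM. The share of the 20 most abundant genes was 20.1% of raw counts, 13.9% without mitochondrially encoded genes and 17.6% without ribosomal protein genes. The median CV ranged from 5.71 to 9.11% with each library left out. It was 9.52% with TMM factors and 9.52% with DESeq2 size factors, 11.4% at a mean count of at least 10 and 7.82% at 1000. The median SD of log2(FPKM + 1) was 0.12. Without the genes listed at 0 in a library and at 100 or more counts in another, an alternative chosen after seeing the data, the median CV was 9.55%. The common biological coefficient of variation was 0.226 with no filter beyond 1 count and 0.111 to 0.158 with each library left out. The log2 ratio of Col1a1 over Col2a1 was 12.69 on log2(FPKM + 1), and that of Acan over Vcan moved by less than its SD under every alternative run. Depth limits genes below about 80.3 counts, such as Col2a1 and Tbxt, and 3 libraries limit every SD.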
